A study of Stylophora pistillata with 24 samples.

Results

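The 237 genes described here are the potassium, sodium, TRP (transient receptor potential) and mechanosensory channel genes of the stony coral Stylophora pistillata. They were chosen by product name from the authors' annotated gene table: any name that contained potassium voltage-gated, potassium channel, sodium channel, transient receptor potential, polycystic kidney disease, polycystin, piezo-type or acid-sensing ion channel, but not cyclic nucleotide-gated. They were 237 of the 33281 genes of the count table, 26602 of which have an entry in the annotated table, and no expression value was used to choose them. Names are automatic homology names ("-like"), so the classes below are classes of names. Each gene keeps the authors' identifier.

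RNA was taken from whole organisms of this branching, brooding coral on the reef at Eilat, in 24 libraries of 8 groups with 3 libraries each. Deep planulae and deep adults were collected at 45 m, and shallow planulae and shallow adults at 5 m; planulae are the brooded swimming larvae. Translocated juveniles descended from the shallow reef and were grown at 45 m for 8 or 60 days, and control juveniles of the same origin were grown at 5 m for 8 or 60 days, all in plastic settlement chambers. Whether replicates stem from different colonies or broods is left unstated in the labels; p-values then refer only to sample-to-sample spread, some of which may be technical.

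Voltage-gated sodium and potassium channels carry the rising and falling phases of electrical impulses, while tandem-pore (K2P) and inward rectifier (Kir) potassium channels set the resting potential. Amiloride-sensitive (ENaC type) and acid-sensing (ASIC) channels are members of one superfamily of sodium channels, opened in other animals by protons, peptides or stretch. TRP channels respond to chemical, thermal or mechanical stimuli, polycystins are large membrane proteins often found on cilia, and Piezo proteins form mechanically gated pores. In cnidarians such channels serve a nerve net, stinging cells and, in planulae, a ciliated swimming body.

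The largest classes were K2P channels (33 genes), PKD1 type polycystins (32), TRPA and ASIC (25 each), Shaker type voltage-gated potassium channels (21) and TRPC (18). The set also held 11 PKD2 type polycystins, 9 Shaw and 9 Shal type potassium channels, 8 TRPV, 8 ENaC type, 7 TRPM, 7 EAG type potassium channels, 6 voltage-gated sodium channels, 4 Kir, 3 TMEM175 lysosomal potassium channels and 1 Piezo. A further 6 genes were named as calcium-activated or subfamily M, N, T or U potassium channels, among them gene20744, named a beta-4 subunit. There were also 2 voltage-gated potassium channels of other subfamilies. The names of 2 other members denote proteins that are not channels. No member was at 0 counts in every library. The filter on low counts kept 232 members for testing and left out 3 PKD1 type, 1 PKD2 type and 1 TRPA gene. Levels are counts per 1e6 counts (CPM), and only a level divided by transcript length is compared between genes. On that scale gene918, a polycystic kidney disease 2-like 1 protein, stood highest with a mean level of 187 CPM per kb over the 24 libraries, followed by the Kir gene7425 with 45.4 and the TRPV gene12002 with 33.3 CPM per kb.

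Libraries held 13.57 M to 35.78 M counts (median 24.32 M, M being 1e6), and 214 to 236 members had a count in any one library. The scaling factors of the trimmed mean of M-values (TMM) ran from 0.558 to 0.909 in planulae and from 0.895 to 1.36 in juveniles and adults. Scaling by total counts alone, an alternative added after the data were seen, moved the median log2 fold change of all genes by 0.45 for deep over shallow planulae, by 1.11 for shallow adults over shallow planulae, by 0.48 for deep adults over deep planulae and by 0.98 for 8-day controls over shallow planulae. Directions between stages, and between planulae, are therefore relative to the bulk of genes, and counts by direction are given under both scalings for all members and for several classes. Deep planula replicate 3 stood apart from its group for some members: 5 of the 232 (2.16%) were at least 10 times its group mates' level at 1 CPM or more, against 200 of all 25735 genes tested (0.777%). Calls that it changed are given beside the main depth results in planulae and stage results at 45 m.

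Life stage separated the members most. Shallow adults differed from shallow planulae in 133 of 232 members (57.3%), where 54.3% of all genes were called, with 58 members higher and 75 lower (30.9% and 23.4% of all genes; edgeR's quasi-likelihood test, adjusted p under 0.05 over all genes). Deep adults differed from deep planulae in 112 members (48.3%), where 44.6% of all genes were called, with 45 higher and 67 lower (23.9% and 20.7% of all genes). With total counts as scaling the splits turned round, to 103 higher and 41 lower at 5 m and to 58 higher and 46 lower at 45 m. The 2 comparisons share no library. Of the members, 33 were higher and 56 lower in adults at both depths, which is 66.9% of the calls at 5 m and 79.5% of those at 45 m, and 4 moved in opposite directions (gene15371, gene20817, gene3383 and gene25787). Without deep planula replicate 3, 85 were called at both depths in the same direction and 2 in opposite directions (gene20817 and gene3383); the log2 fold change of gene25787 at 45 m was then 0.7 (adjusted p 0.0899) in place of -1.64, and that of gene15371 was -1.8 (adjusted p 0.106). The calls of gene20817 at 5 m (without shallow adult 2, shallow planula 1 or shallow planula 3) and of gene3383 at 45 m (with total counts as scaling) were also lost under other alternatives. Over all genes tested the same-direction share was 57.4% and 70% of the calls. The highest of the 8 group means, with TMM as scaling, lay in planulae for 101 of 232 members (43.5%, against 32.4% of all genes), in juveniles for 60 (25.9%, against 33.7%) and in adults for 71 (30.6%, against 33.9%). Juveniles make up more of the 8 groups than planulae or adults do, and no such count is given with total counts as scaling.

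**Figure D1:**
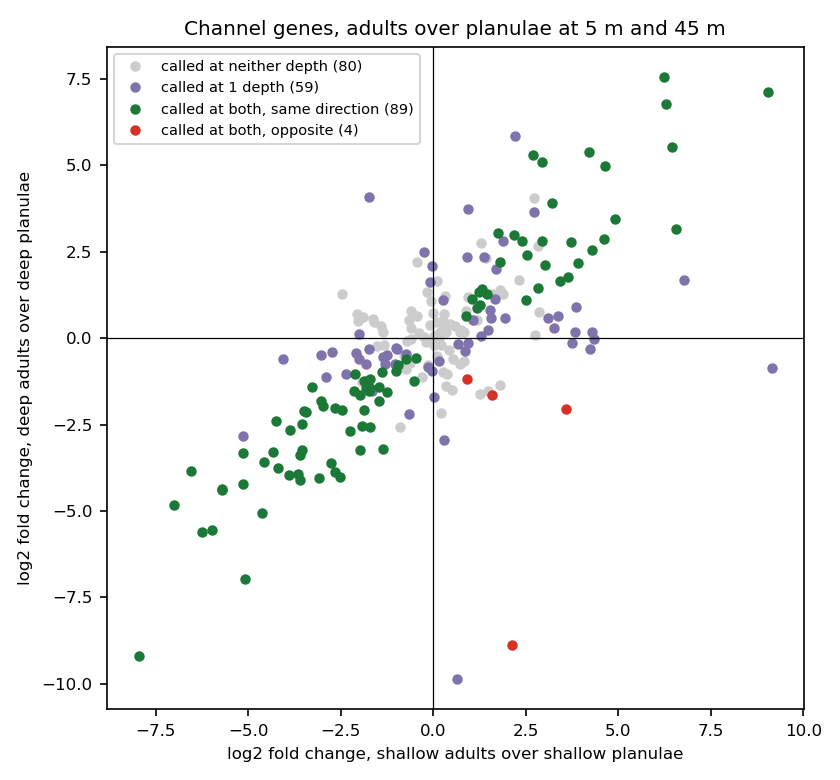
Each point is 1 of 232 channel genes; the horizontal axis gives the log2 fold change of shallow adults over shallow planulae and the vertical axis that of deep adults over deep planulae. The 89 green points were called at both depths in the same direction, the 4 red points in opposite directions, 59 points at 1 depth and 80 at neither; with total counts as scaling the majority of calls lay on the higher side at both depths.

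The voltage-gated sodium channels, which carry the upstroke of the impulse in neurons and muscle, changed over between larva and polyp. Of 6 genes, 4 were lower and 2 higher in shallow adults than in shallow planulae, and 3 were lower and 2 higher in deep adults than in deep planulae; with total counts as scaling these were 3 and 2, and 2 and 2. gene203 (sodium channel protein 1 brain-like) had 14.2, 15.6 and 13.5 CPM in shallow adults, against 127, 174 and 202 CPM in shallow planulae. Every one of those adult libraries lay below every planula library, and the log2 fold change was -3.54 (SE 0.20, adjusted p 3.1e-10). Over the stages gene203 ran from 101 to 202 CPM in planulae, 18.4 to 27.8 CPM in juveniles and 13.5 to 19.9 CPM in adults. gene2637 (sodium channel protein 60E-like) was also highest in planulae, with 53.7 to 99.6 CPM in planulae, 0.364 to 4.48 CPM in juveniles and 4.27 to 8.86 CPM in adults.

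gene9009, another 60E-like sodium channel, went the other way, at 0.68 to 3.62 CPM in planulae, 6.23 to 22.3 CPM in juveniles and 16.1 to 25.7 CPM in adults. Its log2 fold change in adults over planulae was 4.61 at 5 m (SE 0.42, adjusted p 5.29e-08) and 2.86 at 45 m (SE 0.37, adjusted p 5.36e-06). gene9010 (type 5 subunit alpha-like), its direct neighbour in the genome, was at 0.0797 to 0.666 CPM in planulae, at 0.364 to 3.57 CPM in juveniles and at 6 to 20.1 CPM in adults. The pair thus lay lowest in planulae, where gene203 and gene2637 lay highest.

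Among proton- and peptide-gated relatives, gene13126 (acid-sensing ion channel 1C-like) differed strongly between stages. It had 3.84, 3.51 and 2.64 CPM in shallow adults, against 233, 201 and 203 CPM in shallow planulae, and 6.47, 4.01 and 6.01 CPM in deep adults, against 327, 253 and 198 CPM in deep planulae. The groups did not overlap, and the log2 fold changes were -5.99 (SE 0.39, adjusted p 1.61e-09) at 5 m and -5.56 (SE 0.38, adjusted p 3.46e-09) at 45 m. Juveniles lay between the stages, at 7.17 to 36.6 CPM. gene6614 (acid-sensing ion channel 1A-like) was at 65.6 to 93.3 CPM in planulae, 29.4 to 90.9 CPM in juveniles and 1.26 to 9.51 CPM in adults. Summed over the 25 ASIC genes the level ran from 435 to 589 CPM in planulae, 123 to 199 CPM in juveniles and 72.6 to 93.6 CPM in adults. In shallow adults 9 ASIC genes were lower and 4 higher than in shallow planulae (with total counts as scaling 7 lower and 8 higher); at 45 m 10 were lower and 2 higher (8 and 2 with total counts as scaling). Summed over the 8 ENaC type genes with TMM as scaling, planulae (40.7 to 91.6 CPM) and juveniles (54.2 to 132 CPM) overlapped and adults lay below both (24.2 to 31 CPM). By the TMM factors, the sums of shallow adults and shallow planulae overlap with total counts as scaling. In shallow adults 0 ENaC type genes were higher and 2 lower than in shallow planulae (1 and 1 with total counts as scaling). At 45 m 0 were higher and 4 lower (0 and 3 with total counts as scaling). gene127, a subunit alpha-like gene, had 18.5 to 44.7 CPM in planulae, 43 to 111 CPM in juveniles and 14.1 to 25.7 CPM in adults.

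Potassium channels split by class. Of 9 Shaw type genes, whose vertebrate relatives serve fast firing neurons, 5 were lower and none higher in shallow adults than in shallow planulae, and 3 were lower and none higher at 45 m; with total counts as scaling 2 and 1 were lower. gene17015 (subfamily C member 4-like) had 20.8 to 34.0 CPM in planulae, 1.40 to 4.30 CPM in juveniles and 1.22 to 3.65 CPM in adults. Of the Kir class, 3 of 4 genes were higher in shallow adults than in shallow planulae and 4 of 4 at 45 m (3 of 4 without deep planula replicate 3), and none was lower under either scaling. At 45 m the call of gene3773 was lost when only the groups compared were fitted, with no filter and without deep adult 3, deep planula 1 or deep planula 2. gene7425 (inward rectifier 2-like) had 30.2, 39.3 and 43.5 CPM in shallow adults, against 0.831, 0.133 and 0.239 CPM in shallow planulae (log2 fold change 6.55, SE 1.24, adjusted p 0.000211). In juveniles it ran from 68.7 to 196 CPM. Deep planulae had 0.152, 0.557 and 25.3 CPM, with replicate 3 alone near the adult range; deep adults over deep planulae gave a log2 fold change of 3.16 (adjusted p 0.0121; 0.16 when only the groups compared were fitted), and 7.79 without that library (adjusted p 3.86e-08). All 3 TMEM175-like genes were higher in shallow adults, among them gene16260 with 29.0 to 33.0 CPM, against 3.17 to 5.13 CPM in shallow planulae.

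Of the 33 K2P genes, 16 were lower and 6 higher in shallow adults than in shallow planulae and 10 were lower and 6 higher at 45 m; these majorities flipped with total counts as scaling (7 lower and 11 higher, and 6 lower and 7 higher), and without deep planula replicate 3 there were 8 lower and 8 higher at 45 m. gene5450 (subfamily K member 9-like) had 4.27 to 14.9 CPM in deep planulae, 11.2 to 24.5 CPM in shallow planulae and 0.0678 to 1.64 CPM in juveniles. Its direct neighbour gene5449, of the same name, had 0.333 to 1.28 CPM in shallow planulae and 4.74 to 18.1 CPM in juveniles, so the pair was ordered oppositely in these stages. The EAG type gene12504 (subfamily H member 6-like) lay between 44 and 61.6 CPM in all 24 libraries and was called in no comparison. The Shal type gene6879 had 9.25 to 16.6 CPM in planulae, 7.74 to 11.5 CPM in juveniles and 17.2 to 37.8 CPM in adults. gene17047, the pore-forming alpha-1 subunit of the large calcium-activated channel by name, followed the same order with TMM as scaling. It had 15.5 to 19.5 CPM in planulae, 8.34 to 15.5 CPM in juveniles and 23.9 to 43.2 CPM in adults. With total counts as scaling the juvenile and shallow planula ranges overlap for both gene6879 and gene17047.

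**Figure D2:**
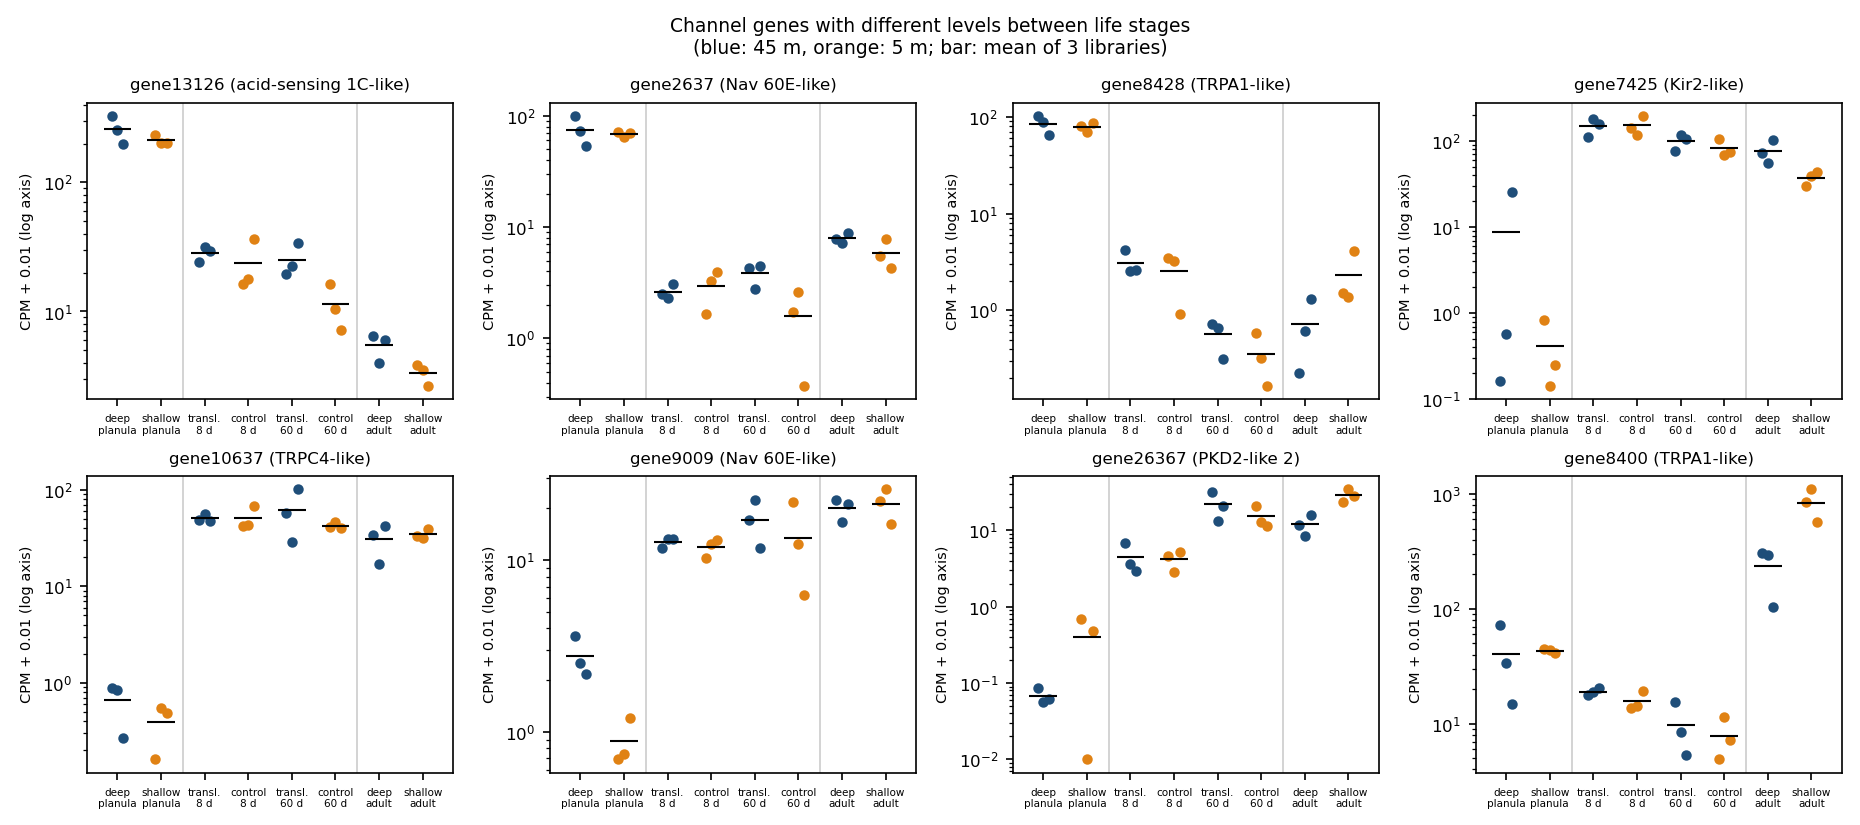
CPM plus 0.01 on a log axis for 8 channel genes in all 24 libraries (points; bars are means of 3), in the order planula, 8 days, 60 days and adult, with animals at 45 m in blue and at 5 m in orange. The acid-sensing gene13126, the sodium channel gene2637 and the TRPA1-like gene8428 lie highest in planulae, gene7425, gene10637, gene9009 and gene26367 lie lowest there, and gene8400 is highest in adults.

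TRPA1-like genes, irritant and temperature sensors in other animals, included members of opposite stage order. In shallow adults 10 of 24 tested were lower and 4 higher than in shallow planulae (with total counts as scaling 7 lower and 10 higher), and in deep adults 10 were lower and 3 higher (7 and 5 with total counts as scaling). gene8428 had 1.49, 1.37 and 4.07 CPM in shallow adults, against 80.2, 69.0 and 86.7 CPM in shallow planulae (log2 fold change -5.09, SE 0.59, adjusted p 9.9e-07). gene7266 was at 9.66 to 25.8 CPM in planulae and at no more than 0.139 CPM in any adult library; deep adults held 2 counts against 1593 in deep planulae, a ratio of 655 (95% interval 181 to 5413, counting error only). Juvenile libraries held 43 to 471 unscaled counts of gene7266, beside 145 to 545 in planula libraries. gene7585 had 128 to 276 CPM in planulae and 50.1 to 150 CPM in juveniles, and was low in shallow adults at 0.487 to 1.65 CPM (49, 58 and 14 unscaled counts). Deep adults varied more widely in gene7585, with 332, 15 and 106 unscaled counts.

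gene8400, another TRPA1-like gene, showed the opposite order. It had 855, 1094 and 572 CPM in shallow adults, against 4.88, 11.5 and 7.27 CPM in 60-day controls (log2 fold change 6.74, SE 0.61, adjusted p 5.32e-07). Planulae lay between these groups at 14.7 to 72.4 CPM, as did 8-day juveniles at 13.8 to 20.3 CPM.

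TRPC-like genes, cation channels acting downstream of phospholipase C in other animals, were more often higher in adults at 5 m (8 of 18 higher, 2 lower), while at 45 m 6 were higher and 4 lower; with total counts as scaling these were 13 and 2, and 6 and 4. gene10637 (TRPC4-like) had 33.5, 31.4 and 38.9 CPM in shallow adults, against 0.151, 0.533 and 0.478 CPM in shallow planulae (log2 fold change 6.45, SE 0.55, adjusted p 2.74e-08), and 28.9 to 101 CPM in juveniles. gene10284 (TRPC6-like) stepped up at both transitions, with 0.866 to 5.53 CPM in planulae, 9.25 to 30.0 CPM in juveniles and 24.3 to 63.4 CPM in adults. In contrast gene23025 (TRPC5-like) had 0.171 to 3.26 CPM in adults, against 24.5 to 71.2 CPM in planulae. In the other TRP classes gene5412 (TRPM2-like) was at 156 to 316 CPM in planulae and at 37.7 to 72.8 CPM in all later libraries, and gene12002 (TRPV6-like), the TRPV gene with the highest mean level, had 146 to 204 CPM in planulae, 24.3 to 104 CPM in juveniles and 33.2 to 91.5 CPM in adults.

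Polycystins contained the most abundant member. gene918 had 484, 588 and 411 CPM in shallow adults, against 1587, 2353 and 2501 CPM in shallow planulae (log2 fold change -2.12, SE 0.24, adjusted p 6.78e-07), and 512, 632 and 368 CPM in deep adults, against 921, 1071 and 1119 CPM in deep planulae (-1.04, SE 0.23, adjusted p 0.00121). With total counts as scaling these were -0.98 (adjusted p 0.00412) at 5 m and -0.5 (adjusted p 0.141, not called) at 45 m. Of 10 PKD2 type genes tested, 3 were higher and 3 lower at 5 m and 2 were higher and 2 lower at 45 m, or 5 and 3, and 3 and 1, with total counts as scaling. gene918 is named after the PKD2L1 channel, which serves fluid and acid sensing cells in vertebrates. Among PKD1 type genes, large proteins with extracellular adhesion domains, gene8872 had 53.6 to 94.2 CPM in planulae, 0 to 3.86 CPM in juveniles and 0.365 to 2.72 CPM in adults. gene26367 (polycystic kidney disease 2-like 2) lay at the other end: no more than 0.68 CPM in planulae, 2.85 to 6.9 CPM at 8 days, 11.5 to 31.5 CPM at 60 days and 8.47 to 34.3 CPM in adults. PKD1 type genes split evenly in shallow adults against shallow planulae, with 9 higher and 9 lower of 29 tested (13 and 5 with total counts as scaling).

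Further members had marked stage orders of their own. gene28099, a PKD1 type gene, had 1.96, 3.59 and 2.64 CPM in shallow adults and 0 counts in every planula library of both depths; shallow adults were at least 12.3-fold higher at 5 m and deep adults at least 5.23-fold higher at 45 m against the floor of 3 counts per library. gene17756, also PKD1 type, had 5.38, 7.22 and 4.94 CPM in shallow adults, against 127, 203 and 294 CPM in shallow planulae (log2 fold change -5.15, SE 0.56, adjusted p 5.07e-07). The same class name therefore covered genes at both ends of the stage range. The TRPA1-like gene7583 had 3.05, 6.44 and 3.33 CPM in deep adults, against 170, 151 and 108 CPM in deep planulae (-5.05, SE 0.41, adjusted p 1.83e-08). Every deep adult library of that gene lay below every deep planula library. The Shaker type gene17001 had 22.8 to 97.4 CPM in planulae, 2.32 to 9.35 CPM in juveniles and 2.19 to 5.49 CPM in adults.

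Juveniles 8 days old already differed from planulae. Control juveniles of 8 days differed from shallow planulae in 112 members (48.3%, where 39% of all genes were called), 35 higher and 77 lower (21% and 18.1% of all genes), or 80 higher and 42 lower with total counts as scaling. All 6 sodium channel genes were called, 2 higher and 4 lower under both scalings, and 7 of 9 Shaw type genes were lower (5 with total counts as scaling). gene2637 had 1.65, 3.25 and 3.93 CPM in 8-day controls, against 71.8, 64.0 and 70.7 CPM in shallow planulae (log2 fold change -4.54, SE 0.47, adjusted p 4.17e-07). gene22611, a Shaker type gene named tsha2, had 3.99, 2.82 and 1.78 CPM in 8-day controls and 0 counts in shallow planulae, so it was at least 12.9-fold higher against a floor of 3 counts per library.

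Between 8 and 60 days 17 members changed in controls (7.33%, where 8.51% of all genes were called), 7 higher and 10 lower (3.83% and 4.69% of all genes), or 4 and 7 with total counts as scaling. gene3444, a PKD1 type gene, fell to 0.915, 0.941 and 0.156 CPM in 60-day controls, against 15.3, 15.9 and 16.1 CPM in 8-day controls (log2 fold change -4.52, SE 0.53, adjusted p 2.88e-05). Translocated juveniles had 1.33 to 2.73 CPM at 60 days and 6.48 to 12.6 CPM at 8 days, and planulae and adults were at 0.205 to 2.47 CPM. gene20574 (TRPA1-like) had 70.5, 60.6 and 63.1 CPM in 60-day controls, against 23.6, 26.5 and 36.5 CPM in 8-day controls (1.17, SE 0.20, adjusted p 0.000994). gene26321 (a K2P gene named after sup-9) had 0.188 to 0.519 CPM in 60-day controls, against 2.92 to 3.31 CPM in 8-day controls. The count of changed members was 9 without control replicate 3 at 60 days, and 10, 11 and 10 without control replicates 1, 2 and 3 at 8 days. Of the 54 ciliated cell marker genes, 12 were higher and 1 lower in the same comparison, and their sum was 2504 to 3861 CPM in 60-day controls, against 2012 to 2086 CPM in 8-day controls, without overlap; its part was not tested.

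Shallow adults differed from 60-day controls in 68 members (29.3%, where 31.4% of all genes were called), 46 higher and 22 lower (16.7% and 14.7% of all genes), or 50 and 18 with total counts as scaling. Calls in the voltage-gated classes were mostly higher, beside 16.7% of all genes called higher. Higher were 4 of 7 EAG, 4 of 21 Shaker, 3 of 9 Shaw and 2 of 9 Shal type potassium channels. Of the other subfamilies 0 of 2 were higher. Of 6 sodium channels 3 were higher and 1 was lower (0 lower with total counts as scaling). Most Shaker, Shaw and Shal type genes were not called. TRPA genes were called in both directions, 6 higher and 8 lower (6 and 7 with total counts as scaling). gene3732, a PKD1 type gene, had 6.87, 12.0 and 6.26 CPM in shallow adults, against 0.0339, 0.188 and 0.0519 CPM in 60-day controls (log2 fold change 6.38, SE 0.84, adjusted p 2.55e-05). gene10661 (TRPC4-like) had 9.28 to 12.6 CPM in shallow adults, against 0.156 to 0.949 CPM in 60-day controls. gene3704 (acid-sensing ion channel 5-like) was lower, at 0.487 to 0.953 CPM in shallow adults, against 2.39 to 17.0 CPM in 60-day controls.

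gene7569, a TRPA1-like gene, was highest in juveniles. It had 14.5, 22.8 and 7.44 CPM in shallow adults, against 138, 103 and 62.1 CPM in 60-day controls (log2 fold change -2.76, SE 0.57, adjusted p 0.00139), and 0.2 to 9.73 CPM in planulae. Between 8 and 60 days, 2 of 7 EAG type genes were lower (0 with total counts as scaling). The KCNQ type gene14611 had 73.1, 73.2 and 61.4 CPM in 60-day controls, against 36.7, 44.4 and 33.1 CPM in 8-day controls (0.86, SE 0.17, adjusted p 0.00315). The EAG type gene10386 had 14.2, 12.9 and 10.3 CPM in 60-day controls, against 23.4, 29.9 and 20 CPM in 8-day controls (-0.97, SE 0.26, adjusted p 0.0243), and 23.6 to 35.3 CPM in shallow adults. The difference of gene10386 between 60 and 8 days was not called with total counts as scaling, nor without replicate 2 or 3 of the 60-day controls or replicate 1 or 2 of the 8-day controls.

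Summed with TMM as scaling, some marker lists of other cell types moved with these stage results. The 54 ciliated cell genes (tektins, axonemal dyneins, intraflagellar transport and related names) summed to 9619 to 13361 CPM in planulae, 1951 to 3861 CPM in juveniles and 2231 to 2724 CPM in adults, with 1 gene at 0 counts in deep adults and none in the other groups. Of the ciliated cell genes 38 were lower and 4 higher in shallow adults than in shallow planulae, beside 23.4% and 30.9% of all genes. The 64 neuron genes summed to 2072 to 2917 CPM in planulae, 1610 to 2195 CPM in juveniles and 1612 to 1999 CPM in adults. The 24 muscle genes summed to 1444 to 2013 CPM in planulae, 1368 to 2107 CPM in juveniles and 1022 to 1335 CPM in adults. The 86 calcifying cell genes summed to 9116 to 16534 CPM in planulae, 4515 to 10296 CPM in juveniles and 2294 to 4626 CPM in adults. By calls, 28 calcifying cell genes were higher and 21 lower in shallow adults than in shallow planulae. In deep adults 23 were higher and 14 lower than in deep planulae. Of muscle genes 8 were higher and 5 lower in shallow adults, and 7 higher and 5 lower in deep adults. Of neuron genes 16 were higher and 19 lower, and 13 higher and 21 lower. The lower adult sums of the calcifying cell and muscle lists therefore did not come with a majority of lower calls. The 9 egg or brooded embryo genes summed to 520 to 926 CPM in planulae, 1373 to 6193 CPM in juveniles and 2038 to 4850 CPM in adults. In shallow adults against 60-day controls the muscle sums (1101 to 1172 CPM in shallow adults, 1466 to 2107 CPM in 60-day controls) and calcifying cell sums (2502 to 2841 CPM in shallow adults, 4515 to 7310 CPM in 60-day controls) did not overlap. By calls in that comparison, 3 muscle genes were higher and 5 lower, and 16 calcifying cell genes were higher and 13 lower. A single name matched the cnidocyte words, at 0 to 2.6 CPM. Their part in the channel results was not tested, and in whole animals fewer cells of a type and less RNA per cell cannot be told apart.

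Depth was the other axis of the design. Deep planulae differed from shallow planulae in 68 of 232 members (29.3%), where 22.9% of all genes were called, 34 higher and 34 lower, beside 12.5% and 10.4% of all genes (52 and 9 members with total counts as scaling). Without deep planula replicate 3 the count was 49, of which 46 were shared. Without shallow planula replicates 1, 2 and 3 it was 63, 41 and 35, and without deep planula replicates 1 and 2 it was 44 and 45. By class, 5 of 7 TRPM, 3 of 8 ENaC type and the Piezo gene were higher and none of their members lower under either scaling, and 3 of 9 Shaw type and 3 of 10 PKD2 type genes were lower and none higher (1 and 1 with total counts as scaling). Without deep planula replicate 3, 3 TRPM genes, 1 ENaC type gene and the Piezo gene were called higher and none of those classes lower, 1 Shaw type gene was lower, and 2 PKD2 type genes were lower and 1 higher. K2P (3 higher, 8 lower), Shaker (2 and 4), sodium channel (1 and 3) and TRPA genes (3 and 4) had majorities that flipped with total counts as scaling, to 6 and 3, 3 and 0, 1 and 0, and 6 and 1.

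**Figure D3:**
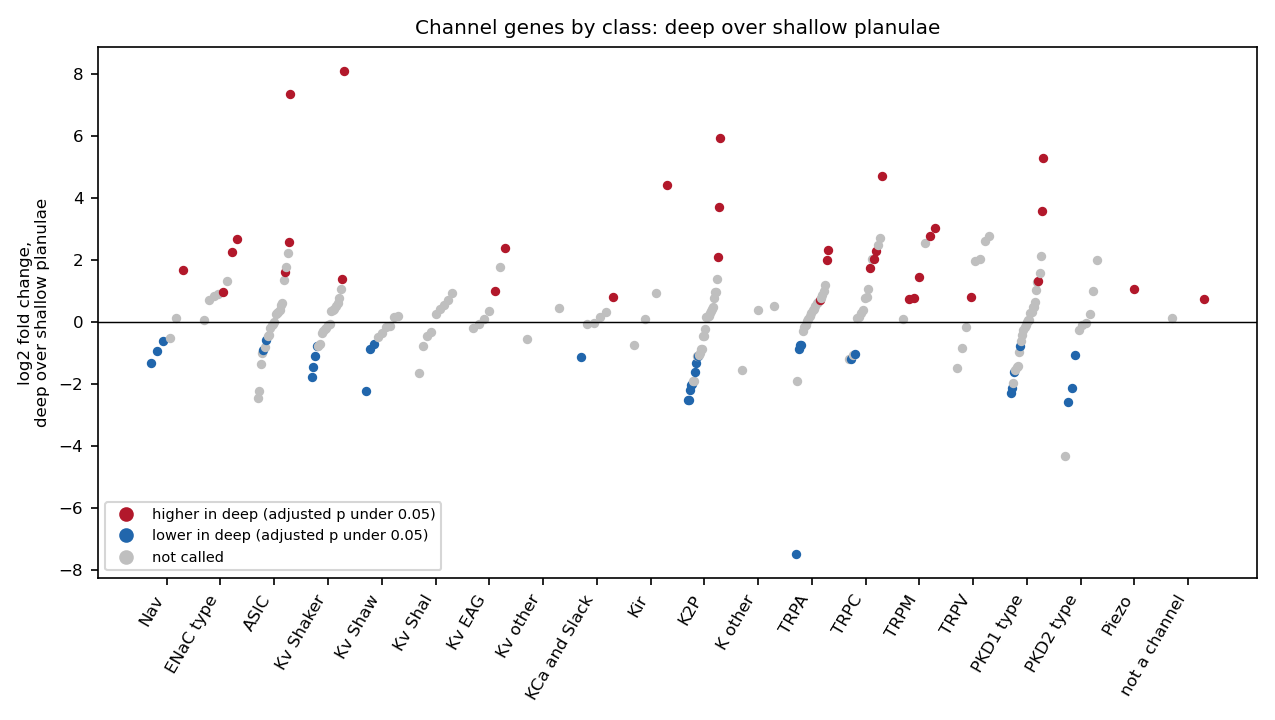
Log2 fold change of deep over shallow planulae for each of 232 channel genes, grouped by class and ordered by value within it; red and blue points passed an adjusted p of 0.05 upward and downward. With all 24 libraries, TRPM, ENaC type and Piezo genes have red points only and Shaw and PKD2 type genes blue points only, while K2P, Shaker, sodium channel and TRPA genes have both, with majorities that flipped with total counts as scaling.

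gene16605, the Piezo gene and by name the stretch-gated channel component 2, differed by depth in planulae. It had 67.9, 68.6 and 67.6 CPM in deep planulae, against 40.8, 27.2 and 29.5 CPM in shallow planulae (log2 fold change 1.07, SE 0.17, adjusted p 0.000291). The 3 deep libraries agreed within 1 CPM and lay above all shallow ones. Juveniles and adults ran from 47.3 to 74.4 CPM, so shallow planulae were the low group. In adults its log2 fold change by depth was -0.17.

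Of the acid-sensing type 3 genes were higher and 2 lower in deep planulae (3 and 0 with total counts as scaling), and the lower ones were gene20415 (-0.91, adjusted p 0.0146) and gene3717 (-0.58, adjusted p 0.0226). gene15371 (acid-sensing ion channel 1-like) had 3.43, 4.64 and 6.5 CPM in deep planulae, against 0.0756, 0 and 0 CPM in shallow planulae, which is 317 counts against 1 and a ratio of 192 (95% interval 34.2 to 7609, counting error only; adjusted p 0.000219). Deep adults had 1.03, 1.3 and 1.14 CPM, against 0.224, 0.285 and 0.556 CPM in shallow adults, and no juvenile library exceeded 0.104 CPM. Translocated and control juveniles, both of shallow origin, thus resembled shallow planulae in this gene. Its direct neighbour gene15370 (ENaC subunit beta-like) had 1.26, 1.21 and 2.46 CPM in deep planulae, against 0.378, 0.0666 and 0.319 CPM in shallow planulae (2.68, adjusted p 0.0239; 0.0779 without deep planula replicate 3, and not called without shallow planula 2 or 3). Of the voltage-gated sodium channels, gene203 had 101, 112 and 114 CPM in deep planulae, against 127, 174 and 202 CPM in shallow planulae (-0.62, SE 0.18, adjusted p 0.0206). gene203 was not called with total counts as scaling (-0.16, adjusted p 0.585), when only the groups compared were fitted or without deep planula 1, deep planula 2, shallow planula 2 or shallow planula 3. gene9009, the adult-high 60E-like gene, was higher, with 3.62, 2.51 and 2.15 CPM in deep planulae, against 0.68, 0.733 and 1.2 CPM in shallow planulae (1.67, SE 0.39, adjusted p 0.00516).

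Among potassium channels, gene17398 (Shaw type, subfamily C member 1-like) had 7.16, 7.8 and 5.84 CPM in deep planulae, against 21.3, 41.2 and 34.8 CPM in shallow planulae (log2 fold change -2.23, SE 0.42, adjusted p 0.0011). The Shaker type gene11224 had 7.27, 9.99 and 8.8 CPM in deep planulae, against 19.2, 36.4 and 33.0 CPM in shallow planulae (-1.77, SE 0.43, adjusted p 0.00624, not called with total counts as scaling). In juveniles and adults gene17398 was at 2.13 to 7.5 CPM and gene11224 at 2 to 15.7 CPM, so shallow planulae were the high group in both. Among those higher in deep planulae, gene907 (EAG type) had 1.68, 1.49 and 3.07 CPM, against 0.302, 0.466 and 0.398 CPM in shallow planulae (2.39, SE 0.49, adjusted p 0.00199). The Shaker type gene22611 had 1.1, 1.86 and 1.28 CPM in deep planulae and 0 counts in all shallow planulae, at least 6.37-fold higher against the floor (adjusted p 3.63e-05).

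Tandem-pore potassium channels were called in both directions. gene16297, named after sup-9 of Caenorhabditis elegans, had 1.87, 1.72 and 1.89 CPM in deep planulae, against 4.84, 9.39 and 8.13 CPM in shallow planulae (log2 fold change -2.03, SE 0.53, adjusted p 0.0101). gene3383 (subfamily K member 9-like) was higher in deep planulae (2.10, SE 0.36, adjusted p 0.000543). Among the acid-sensing genes, gene3705 had 7.92, 3.67 and 10.6 CPM in deep planulae, against 1.59, 2.73 and 3.03 CPM in shallow planulae (1.60, SE 0.38, adjusted p 0.00542). The voltage-gated sodium channel gene21070 had 6.24, 8.17 and 8.65 CPM in deep planulae, against 17.9, 19.1 and 21.4 CPM in shallow planulae (-1.34, SE 0.32, adjusted p 0.00598; -0.9 and adjusted p 0.0661 with total counts as scaling). All 4 genes were without overlap between the groups.

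In the TRP family gene432 (named a TRPA1 homolog) had 0, 0 and 0.0512 CPM in deep planulae, against 3.48, 3.86 and 3.43 CPM in shallow planulae, which is 1 count against 147; shallow planulae were higher by a ratio of 243 (95% interval 42.9 to 9648, counting error only; adjusted p 0.0112). This gene varied widely within later groups, from 0.352 to 36.1 CPM among translocated juveniles of 60 days. gene5412 (TRPM2-like) had 316, 275 and 271 CPM in deep planulae, against 179, 168 and 156 CPM in shallow planulae (0.78, SE 0.17, adjusted p 0.00327), and gene23953 (TRPM1-like) had 10.2, 7.9 and 7.93 CPM in deep planulae, against 3.48, 2.86 and 3.19 CPM in shallow planulae. Of the other TRPM calls, gene25787 (TRPM3-like) rested on 1 library, with 5.56, 4.37 and 65.7 CPM in deep planulae, against 3.48, 3.6 and 3.82 CPM in shallow planulae; its log2 fold change of 2.79 was 0.45 (adjusted p 0.335) without replicate 3. The other members high in that library were gene7425, gene26549 (TRPM3-like) and the K2P genes gene5447 and gene5449, each at least 10 times its group mates. gene5447 had 41.1 CPM there, beside 0.305 and 0.232 CPM, and 6.53 to 16.1 CPM in juveniles.

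Of the polycystins, gene918 had 921, 1071 and 1119 CPM in deep planulae, against 1587, 2353 and 2501 CPM in shallow planulae (log2 fold change -1.05, SE 0.23, adjusted p 0.00334; -0.59 and adjusted p 0.11 with total counts as scaling). gene19686 (polycystin-2-like) and gene19685 (polycystic kidney disease and receptor for egg jelly, a protein known from sea urchin sperm) carry successive identifiers and moved alike. gene19686 had 4.87, 8.5 and 13.2 CPM in deep planulae, against 20.3, 41.7 and 53.4 CPM in shallow planulae (-2.12, SE 0.52, adjusted p 0.00658), and gene19685 had 3.5, 6.78 and 10.3 CPM in deep planulae, against 21.3, 30 and 37.9 CPM in shallow planulae (-2.12, SE 0.48, adjusted p 0.00396). Summed ciliated cell markers overlapped between the groups, at 9619 to 13278 CPM in deep planulae and 10347 to 13361 CPM in shallow planulae, and summed neuron markers were 2072 to 2464 CPM in deep planulae and 2383 to 2917 CPM in shallow planulae. With TMM as scaling other lists did not overlap. Calcifying cell genes summed to 9116 to 13596 CPM in deep planulae and 15573 to 16534 CPM in shallow planulae. Muscle genes summed to 1444 to 1686 CPM in deep planulae and 1783 to 2013 CPM in shallow planulae. Channel partner genes summed to 2464 to 3691 CPM in deep planulae and 4018 to 4498 CPM in shallow planulae. Egg or brooded embryo genes summed to 643 to 926 CPM in deep planulae and 520 to 609 CPM in shallow planulae. The TMM factors were 0.676 to 0.909 in deep planulae and 0.558 to 0.626 in shallow planulae. By these factors, with total counts as scaling the calcifying cell and channel partner sums overlap. Ciliated cell, neuron and muscle sums then lie higher in every deep than in every shallow planula library. By calls, 8 calcifying cell genes were higher and 8 lower in deep planulae, and 4 muscle genes were higher and 2 lower. The lower sums of these 2 lists with TMM as scaling therefore did not come with a majority of lower calls. Of channel partner genes 10 were higher and 11 lower, and of egg or brooded embryo genes 1 was higher and 0 lower. The part of all these lists in the channel results was not tested.

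In adults 13 members differed by depth (5.6%, where 8.11% of all genes were called), 6 higher and 7 lower in deep adults, beside 3.77% and 4.33% of all genes (4 and 10 members with total counts as scaling). Leaving out 1 library gave counts of 6 to 18, with 6 and 7 without shallow adult replicates 1 and 2. Both genes at 0 counts in deep adults were TRPC-like. gene22351 (TRPC4-like) had 0 counts in all 3 deep adults, against 6.39, 7.7 and 6.19 CPM in shallow adults, at least 38.4-fold lower against the floor of 3 counts per library (adjusted p 0.000747). gene20817 (TRPC7-like) also had 0 counts in all deep adults, against 2.13, 3.82 and 1.91 CPM in shallow adults, at least 14.9-fold lower (adjusted p 0.000588). Both were present in deep planulae, gene22351 at 7.96, 1.53 and 4.81 CPM and gene20817 at 4.11, 1.39 and 1.74 CPM. In juveniles gene22351 ran from 0.314 to 37.0 CPM, higher in every translocated than in every control library at 8 days, a difference that did not pass the test (log2 fold change 1.17, SE 0.80, adjusted p 0.949).

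gene12529 (TRPC2-like) was the 1 member called in the same direction by depth in planulae and adults. It had 10.2, 18.5 and 2.84 CPM in deep adults, against 0.42, 0.2 and 0.348 CPM in shallow adults (log2 fold change 5.01, SE 0.77, adjusted p 0.000411), and 3.58, 2.83 and 1.54 CPM in deep planulae, against 0, 0.2 and 0.0797 CPM in shallow planulae (4.71, SE 0.86, adjusted p 0.000901). Over all genes 503 were called the same way in both stages and 100 in opposite ways. Juveniles had 0.0973 to 0.57 CPM, also those at 45 m (0.185 to 0.443 CPM), so high levels were found in the groups collected at 45 m and not in shallow-origin juveniles grown there.

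gene8400, the adult TRPA1-like gene, had 307, 292 and 104 CPM in deep adults, against 855, 1094 and 572 CPM in shallow adults (log2 fold change -1.84, SE 0.49, adjusted p 0.0247). gene8426, also TRPA1-like, had 35.6, 50.0 and 14.4 CPM in deep adults, against 101, 106 and 84.8 CPM in shallow adults (-1.54, SE 0.44, adjusted p 0.0365). gene27732, a PKD1 type gene, had 1.09, 2.35 and 1.79 CPM in deep adults, against 7.15, 7.39 and 7.72 CPM in shallow adults (-2.08, SE 0.49, adjusted p 0.013). None of these 3 was called when the 6 adult libraries were fitted alone. Leaving out 1 library also ended the call of gene8400 (without deep adult 3, shallow adult 1 or shallow adult 2), of gene8426 (without any 1 library but deep adult 2) and of gene27732 (without deep adult 1). Among those higher in deep adults, gene21145 (TRPM6-like) had 2.56, 2.59 and 2.19 CPM, against 0.112, 0.0571 and 0.348 CPM in shallow adults (3.82, SE 1.06, adjusted p 0.0317), and was not called in the fit of the 6 adult libraries, without deep adult 1 or 3 or without shallow adult 1 or 2. The EAG type gene833 had 2.12, 15.8 and 2.36 CPM in deep adults, against 1.37, 0.884 and 0.834 CPM in shallow adults, and was not called without deep adult replicate 2 or without any 1 of the shallow adults. gene429 (TRPA1-like) had 63.1, 51.6 and 144 CPM in deep adults, against 45.7, 47.6 and 34.9 CPM in shallow adults, and was not called without deep adult replicate 3 or without any 1 of the shallow adults. Neither gene833 nor gene429 was called with total counts as scaling, with no filter or in the fit of the 6 adult libraries.

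The depth effect itself differed between adults and planulae in 29 members (12.5%, where 12.9% of all genes were called), 8 with a higher and 21 with a lower effect in adults, beside 6.35% and 6.58% of all genes (3 and 43 members with total counts as scaling). TRPM (4 of 7) and TRPC genes (4 of 18) contributed lower effects and no higher one; without deep planula replicate 3 these were 3 and 3. gene3383, a K2P gene, had 11.8, 16.3 and 17.2 CPM in deep planulae, against 3.78, 1.93 and 4.86 CPM in shallow planulae, and overlapping adult levels of 5.31 to 8.65 CPM in deep adults and 4.88 to 7.7 CPM in shallow adults (difference of the effects -2.07, SE 0.49, adjusted p 0.011). gene16605 had a difference of -1.23 (SE 0.24, adjusted p 0.00329): its depth effect was 1.07 in planulae and not called in adults. gene22611, called in opposite directions, had 0.489, 1.38 and 0.406 CPM in deep adults, against 3.62, 1.97 and 3.16 CPM in shallow adults (log2 fold change -1.90, SE 0.48, adjusted p 0.0217), beside its presence only in the deep of the planula groups. Its adult call was lost when the 6 adult libraries were fitted alone and without deep adult 1, deep adult 3 or shallow adult 1.

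**Figure D4:**
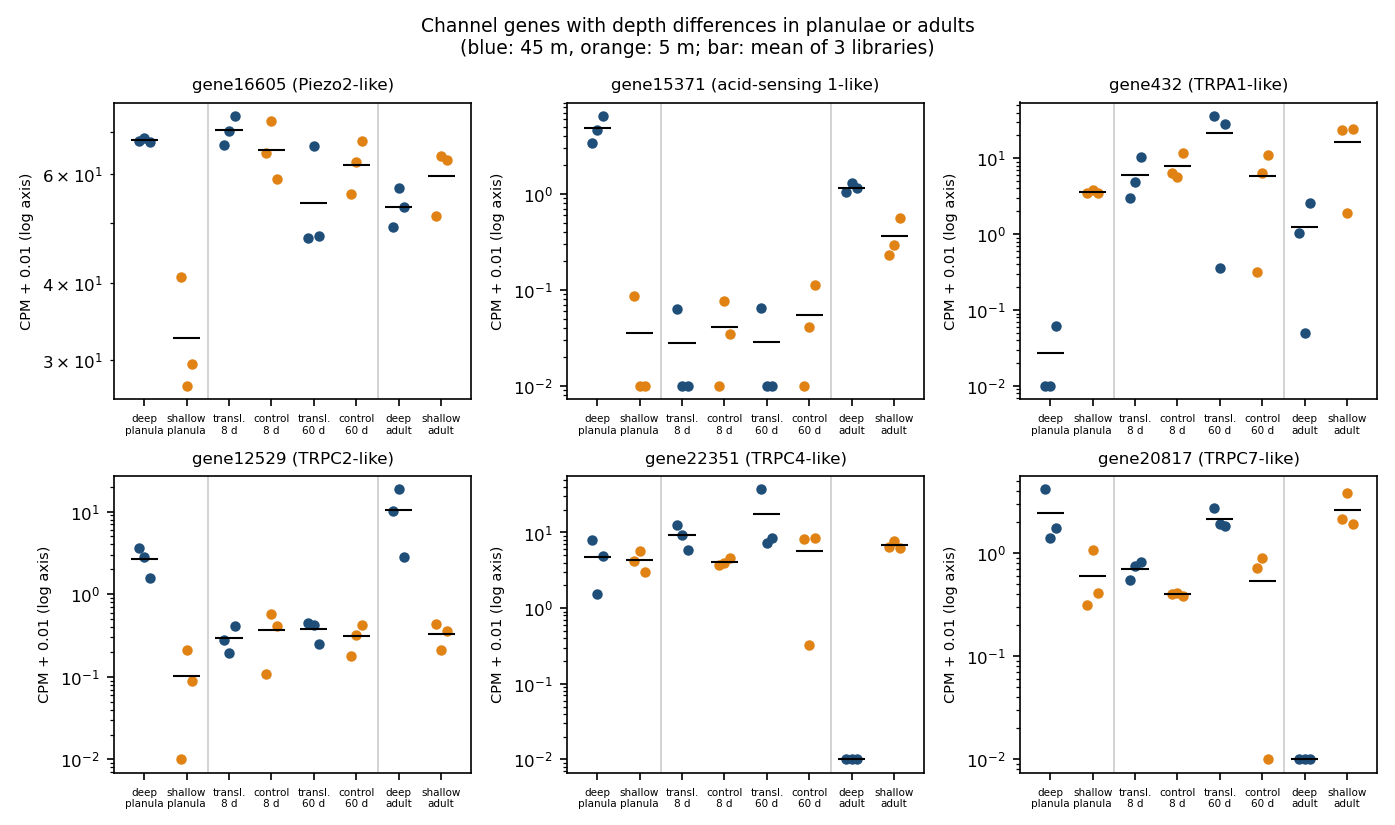
CPM plus 0.01 on a log axis for 6 channel genes in all 24 libraries (points; bars are means of 3), with animals at 45 m in blue and at 5 m in orange; juveniles all descend from 5 m. Points at 0.01 are 0 counts: gene22351 and gene20817 have them in all deep adults, while gene12529 is highest in deep planulae and deep adults and gene16605 is lowest in shallow planulae.

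Moving shallow-origin juveniles to 45 m changed few members. At 8 days 0 members were called between translocated and control juveniles, where 0.00389% of all genes were called, that share being higher and 0% lower. An unadjusted p under 0.05 was found for 11 of 232 members, beside 1397 of all 25735 genes, and DESeq2 called 1 member. At 60 days 2 members were called (0.862%, where 2.36% of all genes were called), 1 higher and 1 lower, beside 1.08% and 1.28% of all genes; DESeq2 called 17. gene23953 (TRPM1-like) had 2.32, 2.06 and 2.42 CPM in translocated juveniles, against 4.47, 6.3 and 8.0 CPM in controls (log2 fold change -1.46, SE 0.31, adjusted p 0.0171), without overlap. In planulae the same gene was higher at depth (1.45, SE 0.31, adjusted p 0.00281). gene5450, the K2P gene, had 0.387, 0.528 and 1.64 CPM in translocated juveniles, against 0.0678, 0.157 and 0.104 CPM in controls (2.88, SE 0.70, adjusted p 0.0331), all near the limit of detection. No member was called when the 6 libraries were fitted alone. The count was 0 without control replicate 3, 4 without translocated replicate 1 and 1 without translocated replicate 3. The call of gene23953 was lost without control replicate 3 or translocated replicate 2, and that of gene5450 without any 1 of the controls or without translocated replicate 3. Summed neuron markers were 1933 to 2195 CPM in translocated juveniles, against 1676 to 1926 CPM in controls, without overlap with TMM as scaling. By the TMM factors, these sums overlap with total counts as scaling. The part of neuron markers was not tested. The translocation effect did not pass the test of a difference between 60 and 8 days in any member (0 called by edgeR, where 0.0777% of all genes were called, 0.035% higher and 0.0427% lower). For that difference 11 of 232 members had an unadjusted p under 0.05, beside 1786 of all 25735 genes, and DESeq2 called 2 members. The DESeq2 counts of 1, 17 and 2 are given without its counts over all genes, so they cannot be set against the bulk of genes.

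Many members lie beside relatives in the genome. By NCBI gene number 222 members matched the RefSeq gene table of assembly jaStyPist1.2, 218 of them placed and protein coding, and 75 stood in 30 runs of direct neighbours, 26 of which held 1 class. Reads of near-identical copies may be shared in counting, which limits each value. Neighbours nonetheless differed in level. In the TRPA run of gene8428, gene8427 and gene8426, gene8428 fell to at most 4.22 CPM after the planula. gene8427 ran from 55.1 to 221 CPM in juveniles, beside 104 to 239 CPM in deep planulae and 32.6 to 46.3 CPM in shallow planulae (log2 fold change of deep over shallow planulae 2, SE 0.50, adjusted p 0.00815). gene8426 was at 89.7 to 113 CPM in planulae, 84.8 to 106 CPM in shallow adults and 7.42 to 38.7 CPM in juveniles.

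In the K2P run of 5 from gene15342 to gene15338, 4 were lower in deep than in shallow planulae and gene15338 was not called; the call of gene15341 was lost with total counts as scaling, with no filter and without deep planula 1 or 2 or shallow planula 1 or 3. In the K2P run of 4 that holds gene16297, gene16299 was also lower and gene16298 and gene16296 were not called, and gene16299 was not called with total counts as scaling or without deep planula 1, deep planula 3 or shallow planula 3. gene15342 had 0.838, 1.9 and 2.97 CPM in deep planulae, against 5.14, 5.73 and 6.45 CPM in shallow planulae (-1.60, SE 0.44, adjusted p 0.0128; not called without deep planula 1), and gene15339 had 0.761, 0.697 and 1.69 CPM in deep planulae, against 2.95, 5.6 and 4.14 CPM in shallow planulae (-2.01, SE 0.50, adjusted p 0.00779). In the run of 4 Shaw type genes, gene17398 and gene17399 were lower in deep planulae and gene17400 and gene17397 were not called; gene17399 was not called with total counts as scaling, with no filter or without any 1 planula library but shallow planula 1.

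**Figure D5:**
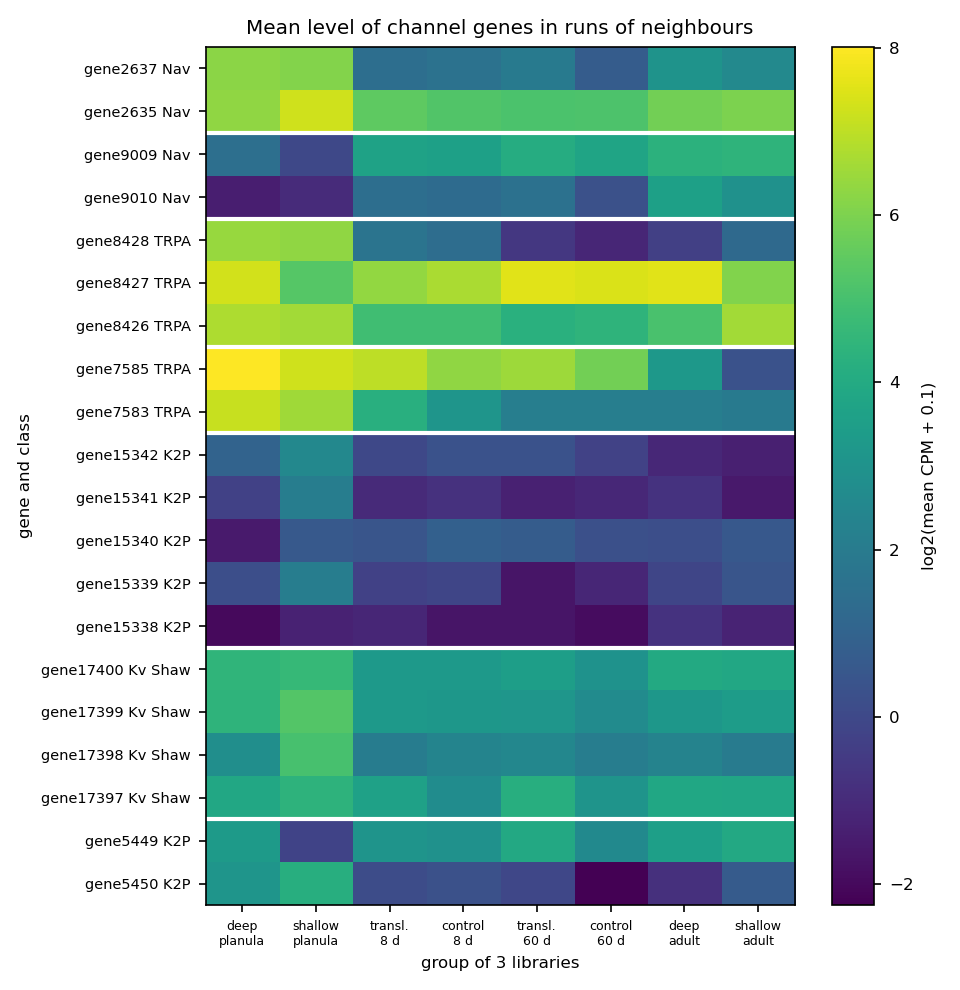
Log2 of the mean CPM plus 0.1 (colour) in 8 groups of 3 libraries (columns) for channel genes in 7 runs of neighbours (rows, white lines between runs; gene7584 of the TRPA run with gene7585 is left out, being at most 1.3 CPM everywhere). In the TRPA run of gene8428 each gene has its own stage pattern, gene5449 and gene5450 are opposite in shallow planulae and juveniles, and the K2P run from gene15342 is brighter in shallow than in deep planulae.

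Related ion transport genes outside the set were read beside it. Of 22 calcium channel genes, 7 were higher and 7 lower in shallow adults than in shallow planulae (30.9% and 23.4% of all genes). Their summed level with TMM as scaling was 1200 to 1614 CPM in planulae, 522 to 646 CPM in juveniles and 522 to 796 CPM in adults. By the TMM factors, with total counts as scaling adult and planula sums overlap at both depths. By depth in planulae 3 calcium channel genes were higher and 3 lower (12.5% and 10.4% of all genes), the smallest p being that of gene6406 (a calcium channel of endosomes and lysosomes in other animals, -2.90, SE 0.30, adjusted p 6.74e-06). Of 73 channel partner genes (calmodulins, stomatins, ankyrins and related names), 10 were higher and 11 lower in deep than in shallow planulae, beside the same 12.5% and 10.4% of all genes. The 4 sodium/potassium pump genes and 7 cyclic nucleotide-gated channels had no call by depth in planulae, and 1 and 2 calls, all higher, in deep adults (3.77% of all genes were higher). Of the 232 tested members, 54 were called in none of the 9 comparisons of 2 groups, and no member in more than 6. The same count over all genes is not given here, so whether 54 is typical of the bulk of genes is not known.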

How the data were processed

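Poly(A) RNA libraries of 24 whole-organism samples, with molecular identifiers added before amplification, were sequenced, per the labels' protocols. The authors deposited whole-number read counts per gene, per the file headers. FastQC, MultiQC, cutadapt, Trimmomatic and DESeq2 are named in the submitters' processing notes; for the aligner, counter, genome build, strand setting and handling of identifiers nothing is stated (not given in the sources used here). The 24 columns of FPM and FPKM values were not used, and 9 lines of the annotated table carry no gene identifier.

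Samples were grouped by the labels' stage and treatment. Counts were filtered (filterByExpr over 8 groups, leaving 25735 genes), scaled by TMM and fitted in 1 quasi-likelihood model of all 24 libraries (R 4.3.3, edgeR 4.0.16, limma 3.58.1; 16 residual degrees of freedom), with Benjamini-Hochberg adjustment over all genes and a threshold of 0.05. SE is the absolute log2 fold change over the root of F. The fits were tested on simulated data. Alternatives were DESeq2 1.42.0, its size factors, no filter, only the groups compared, a replicate block, total counts and leaving out each library.

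The channel genes and other lists were chosen with earlier results of these data known. Named genes were up to 10 rises and 10 falls per comparison (called, at least 1 CPM in the higher group, no overlap), the 5 smallest p-values in each difference of effects, and the highest gene of each class. Others, among them gene203, gene17047, gene8427, gene3383 and the run members, were named after their values were seen. Some results that the rule names are not reported here. Intervals and floors cover counting error only.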

Additional observations from a re-analysis of the deposited data

Results flagged for a closer look

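For 8 channel genes the difference in depth effect between adults and planulae (adult log2 fold change of deep over shallow minus that of planulae) stood out, either because the difference passed its own test among the 5 smallest p-values or because the gene was called in opposite directions between stages or depths. gene16605 (Piezo) differed by -1.23 (SE 0.24, adjusted p 0.00329), gene7569 (TRPA1-like) by -3.88 (SE 0.84, adjusted p 0.00671), gene3383 (K2P) by -2.07 (SE 0.49, adjusted p 0.011), gene15371 (acid-sensing) by -5.65 (SE 1.37, adjusted p 0.0125) and gene25787 (TRPM3-like) by -3.22 (SE 0.92, adjusted p 0.0287), all from edgeR's quasi-likelihood test.

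gene22611 (Shaker type) differed by -10.01, gene20817 (TRPC7-like) by -11.01 and gene22351 (TRPC4-like) by -10.51. These 3 fitted differences rest on groups at 0 counts (shallow planulae for gene22611, deep adults for the other 2), so their size depends on the prior count. Without deep planula replicate 3 the difference of gene25787 was -0.88 (adjusted p 0.17, not called) and that of gene7569 was -3.25 (adjusted p 0.0163). The difference of gene7569 was not called when only the groups compared were fitted, and its depth call in planulae was lost without deep planula 3 or shallow planula 2. The adult call of gene22611 was lost in the fit of the 6 adult libraries.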

How the results depend on the processing

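Of 133 calls of named genes 92 held under every alternative and none turned its direction. The majority direction of all members turned with total counts as scaling for adults over planulae at both depths and for 8-day controls over shallow planulae, as did that of several classes. DESeq2 called 27 members in adults by depth, 1 by translocation at 8 days and 17 at 60 days, 31 between 60 and 8 days and 2 for the translocation effect at 60 minus 8 days. Counts over all genes under the alternatives are not given here, so these counts show only how the member calls moved. Fitting only the groups compared gave 3 members in adults by depth, 0 by translocation at 60 days and 10 for the depth effect of adults minus planulae. Total counts as scaling gave 11 members between 60 and 8 days and 46 for the depth effect of adults minus planulae. With the replicate number as a block in fits of the groups compared, 30 members were called by depth in planulae, 0 in adults, 0 by translocation at 60 days, 10 between 60 and 8 days and 5 for adults minus planulae. Same-numbered samples correlated at -0.157 to 0.257 in their deviations from group means. With 3 libraries a group these correlations cannot decide whether samples were paired, and no pairing other than by number was examined.

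Leaving out 1 library gave 35 to 63 members by depth in planulae, 6 to 18 in adults, 0 to 0 by translocation at 8 days and 0 to 4 at 60 days. It gave 118 to 124 for adults over planulae at 5 m, 96 to 107 at 45 m, 95 to 107 for 8-day controls over shallow planulae, 9 to 16 between 60 and 8 days, 51 to 62 for shallow adults over 60-day controls, 15 to 33 for adults minus planulae by depth and 0 to 0 for the translocation effect at 60 minus 8 days. The difference in depth effect gave 18, 15 and 17 members without shallow adult replicate 1, shallow planula replicate 2 and shallow planula replicate 3. With 3 libraries a group, low counts limit genes near 1 CPM.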
